A study of Homo sapiens with 36 samples.

Results

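The AP-1 and EGR immediate early factors were followed here as a set of 10 genes, which were chosen by name: FOS, FOSB, FOSL1, FOSL2, JUN, JUNB, JUND, EGR1, EGR2 and EGR3. The choice was made with earlier results of these data known. All 10 were present among the 60675 genes of the count table, each under a single Ensembl identifier. Cells of 2 human lines had been exposed for 24 h to ACD, an extract made with water from the monkshood species Aconitum carmichaeli Debeaux, and their mRNA had been sequenced. The study compared the lines to learn whether cells of brain or of intestinal origin respond more strongly. SW1783 was derived from an astrocytoma and HT29 from a colorectal adenocarcinoma. Per the paper the lines also differed in medium, in added carbon dioxide and in plating density. A difference between the lines cannot be told apart from these culture conditions. Per line, batch B of the labels held a vehicle group and 3 groups given ACD at 500, 100 and 20 µg/mL, named high, medium and low. Batch A held its own vehicle group and, as positive control, cells treated with wortmannin at 10 µM, which blocks PI3K, a kinase of membrane lipids. The vehicle was labelled as 0.1% DMSO in both batches. This gave 12 groups with 3 replicates each. The labels do not say whether replicates were separate cultures, so the p-values measure the spread between these libraries. In bulk RNA, fewer cells of a type and less RNA per cell cannot be told apart.

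AP-1 is a dimer of basic leucine zipper proteins. Jun proteins pair with each other or with Fos proteins, whereas Fos proteins need a partner of another family, such as Jun. The dimer binds a short palindrome in promoters and enhancers. FOS, FOSB, JUNB and EGR1 are classical immediate early genes, since growth factor and stress signals switch on their transcription within minutes, without new protein synthesis, and their transcripts decay quickly. FOSL1 and FOSL2 are induced later and last longer, and JUND is present in resting cells of many kinds. EGR1, EGR2 and EGR3 are zinc finger factors that bind GC-rich sites and are held in check by the corepressors NAB1 and NAB2. All RNA in these data was taken at 24 h, long after the first wave of an immediate early response.

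The signals that act on these promoters reach them through a few short elements. A CRE (TGACGTCA, or its core TGACG) binds CREB and ATF factors, TGACATCA is the variant in the JUN promoter that binds Jun and ATF2, and the CArG box is the site of serum response factor (SRF). Promoters were taken from RefSeq on GRCh38.p14 as the 250 bases before a start, on both strands, for 8 of the 10 members. Those shown are of EGR1, FOS, FOSB and JUND, which passed the thresholds in at least 1 comparison of treatment with vehicle, and of JUN, which carries the variant element. FOSL1 and EGR3 also passed and are not shown. They are written 5′ to 3′ on the gene's strand, and capitals mark matches to these elements, where CGTCA is the core on the opposite strand.
EGR1, chr5:138465229-138465478, plus strand: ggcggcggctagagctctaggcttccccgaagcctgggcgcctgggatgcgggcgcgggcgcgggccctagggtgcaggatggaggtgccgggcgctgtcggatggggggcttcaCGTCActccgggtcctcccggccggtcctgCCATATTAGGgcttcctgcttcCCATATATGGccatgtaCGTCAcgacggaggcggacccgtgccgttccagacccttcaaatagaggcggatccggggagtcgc
FOS, chr14:75278578-75278827, plus strand: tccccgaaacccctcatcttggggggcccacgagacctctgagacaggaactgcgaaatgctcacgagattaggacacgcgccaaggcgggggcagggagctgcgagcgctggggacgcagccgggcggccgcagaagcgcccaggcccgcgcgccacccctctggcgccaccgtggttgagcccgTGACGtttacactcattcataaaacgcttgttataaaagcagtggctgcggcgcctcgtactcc
FOSB, chr19:45467746-45467995, plus strand: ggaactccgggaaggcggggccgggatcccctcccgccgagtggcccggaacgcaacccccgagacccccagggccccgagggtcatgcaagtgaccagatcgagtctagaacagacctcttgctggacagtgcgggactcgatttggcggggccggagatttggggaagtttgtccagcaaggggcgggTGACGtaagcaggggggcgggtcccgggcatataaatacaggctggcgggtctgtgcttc
JUN, chr1:58784048-58784297, minus strand: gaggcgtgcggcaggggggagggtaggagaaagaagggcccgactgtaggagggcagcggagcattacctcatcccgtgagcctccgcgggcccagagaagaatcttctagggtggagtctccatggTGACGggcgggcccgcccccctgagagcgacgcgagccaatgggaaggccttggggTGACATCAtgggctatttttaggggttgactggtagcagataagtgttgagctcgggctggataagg
JUND, chr19:18281623-18281872, minus strand: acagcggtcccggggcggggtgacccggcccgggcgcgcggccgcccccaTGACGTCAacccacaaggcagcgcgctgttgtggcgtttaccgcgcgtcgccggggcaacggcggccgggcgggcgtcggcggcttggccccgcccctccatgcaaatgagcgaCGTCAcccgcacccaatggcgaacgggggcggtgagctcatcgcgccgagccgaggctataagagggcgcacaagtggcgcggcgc
Counted back from the base before the start as -1, EGR1 held CArG boxes at -105 to -96 and -83 to -74 and the core TGACG, read on the opposite strand, at -135 to -131 and -66 to -62. FOS held the core at -64 to -60 and FOSB at -60 to -56. JUN held TGACATCA at -67 to -60 and a core at -123 to -119. JUND held the full CRE at -200 to -193 and a core on the opposite strand at -86 to -82. All 8 members had the core TGACG in at least 1 window, against 21.2% of 35093 RefSeq promoters of the same length. CArG boxes were found in EGR1 and in 1 of the 3 windows of EGR2, against 1.16% of promoters. The full CRE, within which the core also matches, stood in 1.65% of promoters and TGACATCA in 2.37%. The AP-1 palindrome TGANTCA, present in 6.57%, and the EGR site GCGGGGGCG, present in 4.72%, matched none of the members' windows. A match describes these letters only. Sequence beyond the 250 bases was not searched, so a missing match does not mean that a gene lacks the element.

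Total counts per library ranged from 15941255 to 33866644, and a count of 0 allows up to 3 counts, or 0.089 to 0.188 CPM (counts scaled to the library total). Vimentin (VIM) reached 4076 to 4975 CPM in SW1783. Of the astrocyte markers, GFAP and S100B stayed at or under 0.261 and 0.253 CPM there, while SLC1A3 was measured at 5.58 to 50.1 CPM. In HT29 SLC1A3 was at or under 0.042 CPM. EPCAM (452 to 585 CPM) and KRT20 (233 to 312 CPM) marked HT29. Of the leukocyte markers, PTPRC was measured in SW1783 at 3.28 to 14.2 CPM while CD3E was at 0. At the high dose in SW1783 PTPRC fell (-1.71, adjusted p = 1.67e-28), as did SLC1A3 (-2.45) and COL1A2 (-1.89), and their part in the results was not tested. Replicate 2 of the high dose in HT29 stood apart from its group, with a chi-square per degree of freedom of up to 71.49 between replicates. Replicate 1 of the batch B vehicle in HT29 also stood apart, by less (15.12 and 17.3, against 4.04 between replicates 2 and 3). The deviations of these libraries from their group means correlated (r = 0.47). Values given without the high-dose library still include this vehicle library. The vehicles of batches A and B with the same number differed by less (1.46 to 1.64) than replicates of a group did (from 1.68), so the ACD and wortmannin comparisons may not have independent vehicles. No member differed between the vehicle groups of the batches in either line (0 by DESeq2, 0 at an unadjusted p under 0.05, 0 by edgeR). Of all genes tested, 0.00348% differed in SW1783 and 0% in HT29. Since these vehicles may not be independent, this does not show how far members move between batches.

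The 2 lines differed in most members under vehicle. SW1783 had 6.36 times the FOSL1, 3.81 times the FOSL2 and 2.21 times the JUN of HT29. FOS, FOSB and EGR1 were lower in SW1783, at 0.107, 0.403 and 0.58 of the HT29 level. Of the 10 members, 7 differed by the rule used throughout, an adjusted p under 0.05 in DESeq2's Wald test and a change of over 1.5-fold, where 50.1% of all genes tested did so.
The log2 difference was 2.67 ± 0.07 (SE, n = 3 against 3) for FOSL1 (adjusted p = 1.27e-288), 1.93 ± 0.07 for FOSL2 (8.59e-185) and 1.14 ± 0.07 for JUN (1.44e-52). It was -3.23 ± 0.19 for FOS (1.86e-64), -1.31 ± 0.28 for FOSB (6.03e-06) and -0.79 ± 0.10 for EGR1 (2.31e-14). EGR3 was measured in SW1783 alone above the floor. In the fit of this comparison it had 152.8 to 175.6 normalized counts in the SW1783 vehicle against 0 to 2.4 in HT29 (adjusted p = 2.45e-14), where its level was at or under the floor in all groups and no fold change is given. JUND was 0.49 lower on the log2 scale in SW1783 (-0.49 ± 0.12, adjusted p = 8.85e-05), short of the fold threshold. JUNB (-0.15 ± 0.12, adjusted p = 0.316) and EGR2 (-0.07 ± 0.75, adjusted p = 0.947) did not pass.

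Per kb of annotated exon the order of the members also differed. All values here are vehicle levels of batch B in normalized counts per kb, as mean ± SD with n = 3. FOSL1 led in SW1783 (1887 ± 108), followed by FOSL2 (839 ± 5.8), JUN (633 ± 39.6), JUNB (522 ± 64.8) and JUND (310 ± 30.9). EGR1 (137 ± 14.7), EGR3 (32.2 ± 2.38), FOS (12.5 ± 0.963), FOSB (5.44 ± 0.547) and EGR2 (1.87 ± 0.957) followed. The replicates of neighbours in this order did not overlap, but JUN (from 592) and JUNB (up to 583) nearly met.
In HT29 JUNB (578 ± 77.6, from 506) and JUND (437 ± 54.1, up to 498) led and nearly met. FOSL1 (297 ± 10.3) and JUN (286 ± 12.4) overlapped, as did EGR1 (235 ± 3.08) and FOSL2 (220 ± 17.2). FOS stood at 117 ± 10.3, FOSB at 13.6 ± 1.75, EGR2 at 1.97 ± 0.598 and EGR3 at 0.161 ± 0.279. By this measure the first member was a Fos gene in SW1783 and a Jun gene in HT29. The order depends on the annotated exon length. Without division by length FOSL2 had the most normalized counts in both lines, with a mean of 6011 in SW1783 and 1574 in HT29.

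**Figure D1:**
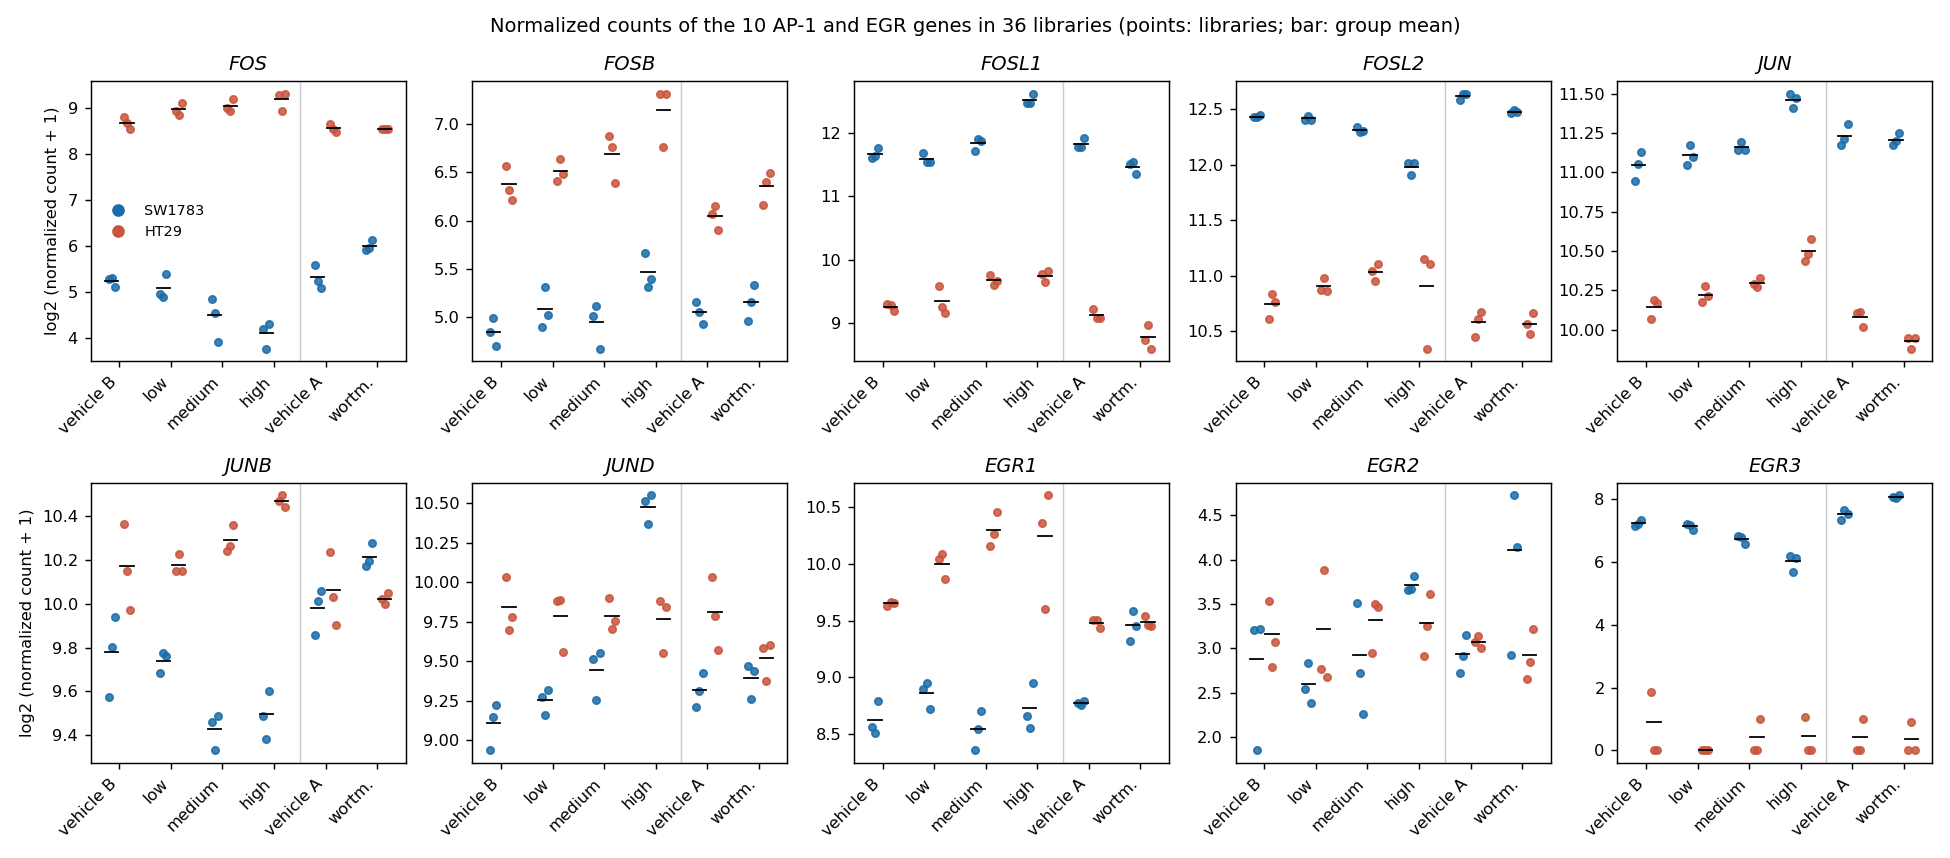
Each panel is a gene, with log2(normalized count + 1) on its own vertical scale and the 6 groups of each line along the horizontal axis, where points are libraries and bars group means. Counts were normalized separately per line and batch, so levels of different lines or batches are not on exactly the same scale. JUND and FOSL1 were highest at the high ACD dose in SW1783, EGR3 was lower there than in the other SW1783 groups and near 0 in all HT29 groups, and replicate 2 of the high dose in HT29 was low for EGR1 and FOSL2.

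At the high dose the AP-1 members of SW1783 went in both directions (coordinates are GENCODE gene bounds on GRCh38). JUND (chromosome 19, 18279694 to 18281622) and FOSL1 (chromosome 11, 65892049 to 65900573) rose, to 2.59-fold and 1.81-fold of vehicle, while FOS (chromosome 14, 75278826 to 75282230) and EGR3 (chromosome 8) fell to 0.441 and 0.424 of it. JUN was higher and FOSL2 and JUNB were lower by less than 1.5-fold, with an adjusted p under 0.05. EGR1, FOSB and EGR2 did not pass. DESeq2 thus called 4 of 10 members, 2 in each direction, where it called 17.6% of all genes, and 7 of 10 passed on the adjusted p alone, where 44.9% of all genes did.

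JUND, the Jun protein of resting cells, had normalized counts of 488.8, 566 and 595.3 in the vehicle replicates and 1459, 1319 and 1496 at the high dose. All treated libraries were above all vehicle libraries, by more than the spread in either group. The log2 fold change was 1.37 ± 0.09 (adjusted p = 1.41e-55).
FOSL1, a Fos protein without the transactivation domain of FOS, had 3130, 3211 and 3482 under vehicle and 5735, 5706 and 6332 at the high dose. The groups were again apart, with a log2 fold change of 0.86 ± 0.05 (adjusted p = 2.53e-55). FOSL2, its close relative, moved the other way: 5498, 5520 and 5566 under vehicle and 4143, 3837 and 4148 at the high dose. These groups did not overlap either, and the change of -0.45 ± 0.03 (adjusted p = 1.95e-41) stayed under the fold threshold.
JUN, the partner of both, had 1970, 2125 and 2233 under vehicle and 2892, 2719 and 2836 at the high dose. The high-dose libraries were the higher ones throughout, with a log2 fold change of 0.42 ± 0.05 (adjusted p = 9.63e-17). JUNB had 762.4, 892.7 and 979.4 under vehicle and 717.7, 666.7 and 777.2 at the high dose. These groups overlapped, since the highest treated library exceeded the lowest vehicle library, and the change was -0.29 ± 0.09 (adjusted p = 0.00231).

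FOS, the founding immediate early gene of the family, had few counts in SW1783: 37.9, 38.5 and 33.3 normalized counts under vehicle and 17.4, 12.6 and 18.7 at the high dose. All treated libraries were below all vehicle libraries (log2 fold change -1.18 ± 0.37, adjusted p = 0.00379). FOSB had 27.7, 30.7 and 25 under vehicle and 49.8, 38.7 and 41.2 at the high dose. Its groups were apart in the opposite direction, but the change of 0.63 ± 0.30 did not pass in DESeq2 (adjusted p = 0.0827) and did in edgeR (log2 fold change 0.62, adjusted p = 0.0103).
EGR3 had 140.4, 145.4 and 161.3 under vehicle and 71.8, 50.5 and 68.3 at the high dose. The high-dose libraries were all under the vehicle libraries (log2 fold change -1.24 ± 0.18, adjusted p = 7.71e-11). EGR1, by contrast, had 377.1, 364.5 and 442.3 against 402.9, 373.9 and 493.8. The groups overlapped and the log2 fold change was 0.10 ± 0.12 (adjusted p = 0.522, 95% interval -0.13 to 0.34). EGR2, which drives myelination in Schwann cells, had 2.6 to 8.3 normalized counts under vehicle and 11.6 to 13.1 at the high dose, too few for a call (adjusted p = 0.247).

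The lower doses were compared in the same fit. At the medium dose in SW1783 DESeq2 called 0 of 9 members with an adjusted p, against 3.82% of all genes, while 7 had an unadjusted p under 0.05 and edgeR called 1, FOS. On the adjusted p alone 5 members passed, where 29.5% of all genes did. JUND was higher (0.34 ± 0.09, adjusted p = 0.000995), as was FOSL1 (0.16 ± 0.05, 0.0117). JUNB (-0.35 ± 0.09, 0.000278), EGR3 (-0.50 ± 0.17, 0.015) and FOSL2 (-0.12 ± 0.03, 0.00163) were lower. FOS had 27.8, 22.4 and 14.1 normalized counts at this dose, below all vehicle libraries, with a log2 fold change of -0.79 ± 0.35 (adjusted p = 0.0793).
At the low dose DESeq2 called 0 of 6 members with an adjusted p, where 0.118% of all genes were called, with 1 unadjusted p under 0.05, that of EGR1, and 0 by edgeR. The log2 fold changes of the members with an adjusted p lay between -0.08 (FOSL1) and 0.23 (EGR1).
Between the high and the medium dose, JUND (1.03, adjusted p = 1.41e-32) and FOSL1 (0.69, 2.79e-36) differed upward and EGR3 (-0.74, 0.000375) downward. That made 3 of 10 members, against 9.83% of all genes. JUNB stood at 687.6 ± 39.1 at the medium dose and 720.5 ± 55.3 at the high dose, a difference within the spread.

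In HT29 the members called at the high dose were not those called in SW1783. Whether the responses themselves differed between the lines is given further below. FOSB and EGR1 rose, to 1.75-fold and 1.51-fold of vehicle, and no member fell. FOS, FOSL1, JUN and JUNB were higher by less than 1.5-fold with an adjusted p under 0.05. DESeq2 called 2 of 8 members with an adjusted p, where it called 3.16% of all genes, and 6 of 8 passed on the adjusted p alone, where 8.59% of all genes did. With replicate 2 of the high dose left out, 3 members were called, since FOS then passed the fold threshold.
FOSB had 94, 79 and 73.4 normalized counts under vehicle and 158.3, 107.7 and 157.5 at the high dose. The groups did not overlap (log2 fold change 0.81 ± 0.20, adjusted p = 0.00195), and without replicate 2 the change was 0.95 ± 0.20 (adjusted p = 8.86e-05). FOSB overlaps ERCC1 on the opposite strand, as FOSL2 does FOSL2-AS1, JUNB HOOK2 and EGR3 an unnamed gene. The library kit was directional, but the strand setting of the counting is not given in the sources used here. FOSL2 and EGR2 each also overlap an unnamed gene on their own strand, which a strand setting would not separate.
EGR1 had 791.7, 812.1 and 806.5 under vehicle and 1308, 774.4 and 1552 at the high dose. Replicates 1 and 3 were above all vehicle libraries and replicate 2 was below them, so the groups overlapped. Its log2 fold change was 0.60 ± 0.20 (adjusted p = 0.0354) with replicate 2 and 0.83 ± 0.10 (adjusted p = 6.76e-14) without it. The call was lost in edgeR (adjusted p = 0.0866), with only the 6 compared libraries in the fit (0.245), without replicate 1 or 3 of the high dose (0.119 and 0.236), and without vehicle replicate 1, 2 or 3 (0.143, 0.133 and 0.115).
FOS had 444.8, 403.9 and 372.4 under vehicle and 620, 488.9 and 631.7 at the high dose. Its groups were apart (0.52 ± 0.13, adjusted p = 0.00209), and without replicate 2 the change was 0.62 ± 0.12 (adjusted p = 3.42e-06). FOSL1 (0.50 ± 0.11, adjusted p = 0.000425), JUN (0.36 ± 0.07, 4.78e-06) and JUNB (0.30 ± 0.09, 0.0224) also had all treated libraries above all vehicle libraries. JUND, with 828.2 to 1045 under vehicle and 750.5 to 940.9 at the high dose, did not pass (-0.07 ± 0.13, adjusted p = 0.849, 95% interval -0.33 to 0.19). FOSL2 had 2271 and 2199 in replicates 1 and 3 of the high dose, 1299 in replicate 2 and 1565 to 1829 under vehicle. Its log2 fold change was 0.17 ± 0.17 (adjusted p = 0.667) with replicate 2 and 0.38 ± 0.08 (adjusted p = 2.45e-05) without it.

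At the medium dose in HT29 DESeq2 called 0 of 9 members, where 0.792% of all genes were called, with 4 unadjusted p under 0.05 and 0 by edgeR. FOSL1 alone passed on the adjusted p (0.42 ± 0.11, 0.0146), where 1.98% of all genes did. EGR1 had 1143, 1225 and 1399 normalized counts at this dose, all above the 791.7 to 812.1 of vehicle. The change of 0.64 ± 0.20 had an adjusted p of 0.0569 in the fit that shared its spread with the high dose. It passed when the deviating high-dose library was left out (0.64 ± 0.09, adjusted p = 9.7e-10) or when only the 6 compared libraries were fitted (6.65e-10).
At the low dose 0 of 9 members were called, where 0.282% of all genes were, with 1 unadjusted p under 0.05, that of FOS, and 0 by edgeR. EGR1 had 1053, 1086 and 933.8 and FOS 489.8, 455.9 and 552.3, in each case above all vehicle libraries. Their log2 fold changes were 0.35 ± 0.20 (adjusted p = 0.802) and 0.30 ± 0.13 (0.563). Between the high and medium doses 0 of 8 members differed, against 0.699% of all genes, with 2 unadjusted p under 0.05 and 0 by edgeR.

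**Figure D2:**
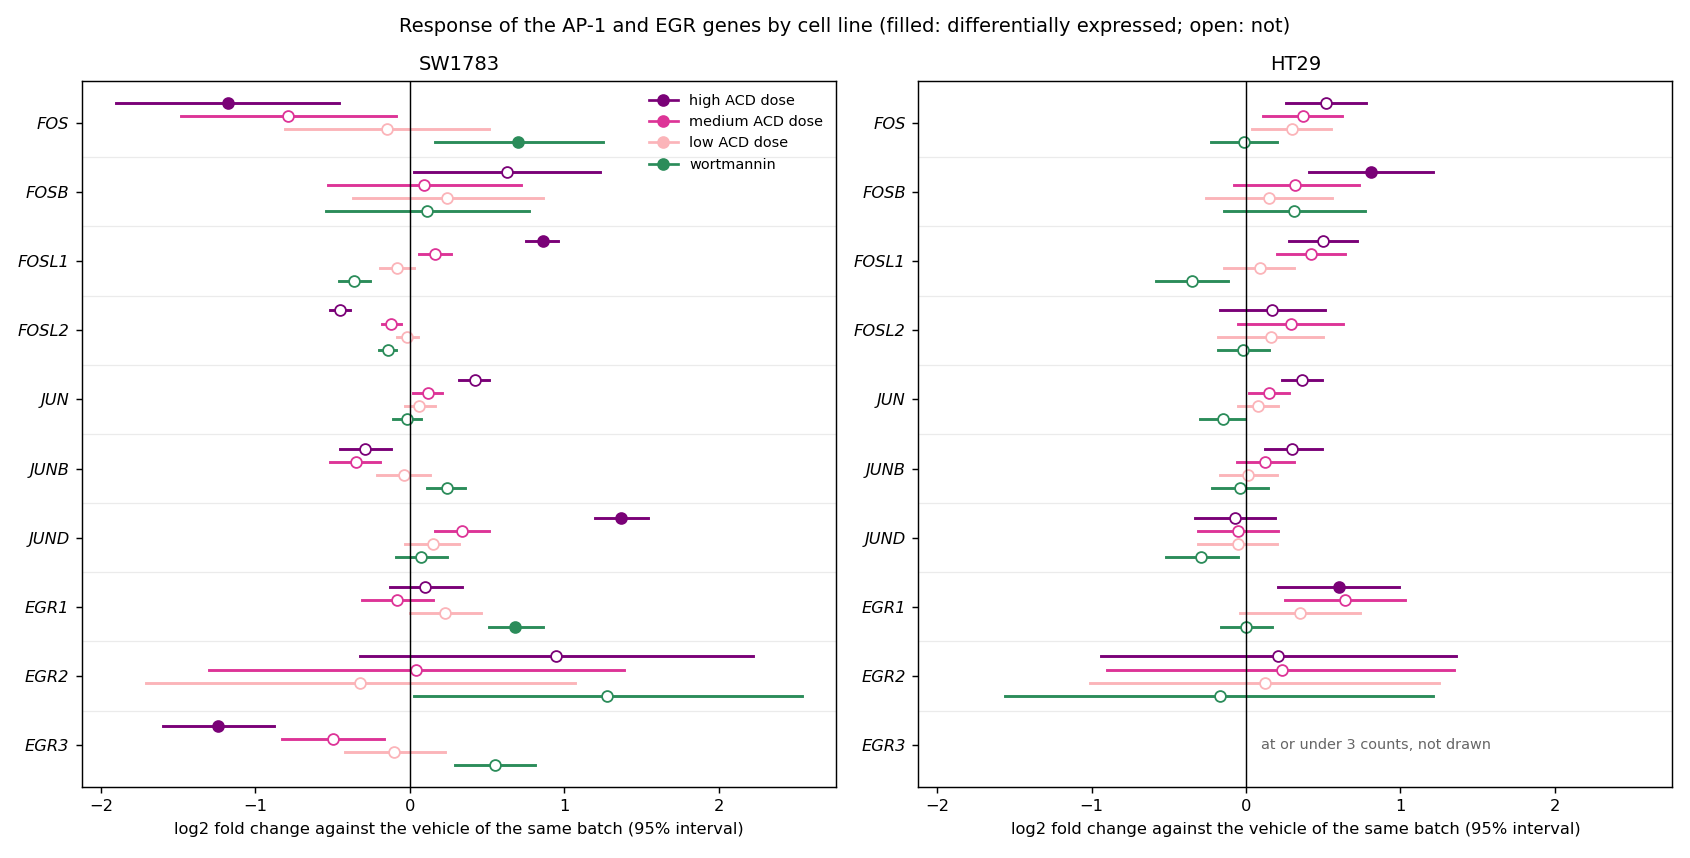
Points are log2 fold changes of each gene against the vehicle of its own batch in SW1783 (left) and HT29 (right), with 95% intervals, for 3 ACD doses and wortmannin, and filled points passed both thresholds. In SW1783 JUND and FOSL1 lie to the right and FOS and EGR3 to the left at the high dose, whereas in HT29 the filled points are FOSB and EGR1.

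Wortmannin was compared with the vehicle of batch A. In SW1783 EGR1 and FOS rose, to 1.61-fold and 1.63-fold of vehicle, which made 2 of 9 members with an adjusted p, against 2.71% of all genes. On the adjusted p alone 6 of 9 passed, where 32.5% of all genes did. EGR1 had 437.4, 430.9 and 441.9 normalized counts under the batch A vehicle and 638.3, 767.6 and 698.9 with wortmannin. The groups were far apart (log2 fold change 0.68 ± 0.09, adjusted p = 3.93e-13).
FOS had 46.9, 36.9 and 32.9 under vehicle and 59.4, 61 and 69.2 with wortmannin. These groups did not overlap (0.70 ± 0.28, adjusted p = 0.0366), but the call was lost without vehicle replicate 2 or 3 or without any single wortmannin library (adjusted p from 0.0916 to 0.178). EGR3 went from 160.7, 202.1 and 184.7 to 266.8, 261.3 and 275.9, with all treated libraries higher (0.55 ± 0.13, adjusted p = 0.000248), under the fold threshold. JUNB was higher as well (0.24 ± 0.07, 0.00152). FOSL1 had 3532, 3518 and 3875 under vehicle and 2924, 2976 and 2613 with wortmannin. It was lower in all treated libraries (-0.36 ± 0.05, adjusted p = 3.31e-12), and FOSL2 was lower by a smaller amount (-0.14 ± 0.03, 4.68e-06). JUN (-0.02 ± 0.05, adjusted p = 0.757), JUND (0.07 ± 0.08, 0.554) and FOSB (0.11 ± 0.33, 0.844) did not pass.
In HT29 wortmannin led to 0 calls among 8 members, where 2.74% of all genes were called, with 3 unadjusted p under 0.05 and 0 by edgeR. FOSL1 alone passed on the adjusted p, where 19.7% of all genes did. It had 590.4, 537.9 and 540.5 under vehicle and 423.6, 495 and 383.4 with wortmannin, lower in all treated libraries (-0.35 ± 0.12, adjusted p = 0.0172). EGR1 was level, at 713.2 ± 21.1 and 715.8 ± 24.2, with a log2 fold change of 0.00 ± 0.08 and a 95% interval of -0.16 to 0.17. FOS stood at 375.3 ± 23.5 and 371 ± 1.4.

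The difference between the lines was tested as an interaction, that is, the log2 fold change in SW1783 minus that in HT29. At the high dose 4 of 10 members differed, where 14.6% of all genes did. JUND (1.40 ± 0.17, adjusted p = 1.63e-15) responded more upward in SW1783. FOS (-1.75 ± 0.30, 1.28e-07), FOSL2 (-0.67 ± 0.18, 0.00143) and JUNB (-0.63 ± 0.13, 1.13e-05) responded more downward. FOSL1 differed by 0.31 ± 0.13 (0.0458), short of the fold threshold, and by 0.26 ± 0.12 (adjusted p = 0.0741) without the deviating HT29 library. FOSL2 differed by more without it (-0.88 ± 0.07, 5.19e-32), and EGR1 then passed too (-0.78 ± 0.17, 2.01e-05, against -0.54 ± 0.25, 0.0988, with it). Without HT29 high replicate 1 or 3, however, FOSL2 fell short of the fold threshold (-0.53 and -0.56). JUNB did so without any of 3 other single libraries (-0.54, -0.57 and -0.55). JUN was higher in both lines by less than 1.5-fold, with a difference of 0.02 ± 0.08 (adjusted p = 0.926) and a 95% interval of -0.14 to 0.17. FOSB differed by -0.24 ± 0.31 (adjusted p = 0.664), which did not pass.
At the medium dose 2 of 9 members differed, FOS (-1.19 ± 0.29, 0.000919) and EGR1 (-0.75 ± 0.25, 0.0313), where 3.43% of all genes did. The EGR1 call was lost when any of 9 single libraries of the medium and vehicle groups was left out (adjusted p from 0.0525 to 0.112), and without the deviating HT29 library of the high dose it was -0.75 ± 0.16 (5.13e-05). The EGR1 call was also lost in edgeR (adjusted p = 0.0796). At the low dose 0 of 7 members differed, against 0.266% of all genes, with 0 unadjusted p under 0.05 and 0 by edgeR. With wortmannin 2 of 8 members differed, against 3.42% of all genes: EGR1 (0.66 ± 0.11, 9.28e-08) and FOS (0.70 ± 0.22, 0.0114). For FOS the sign of the difference was therefore opposite for ACD at the high and medium doses and for wortmannin. The FOS call with wortmannin was lost without SW1783 vehicle replicate 2 or 3 or SW1783 wortmannin replicate 3 (adjusted p = 0.0599, 0.0732 and 0.0663).

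**Figure D3:**
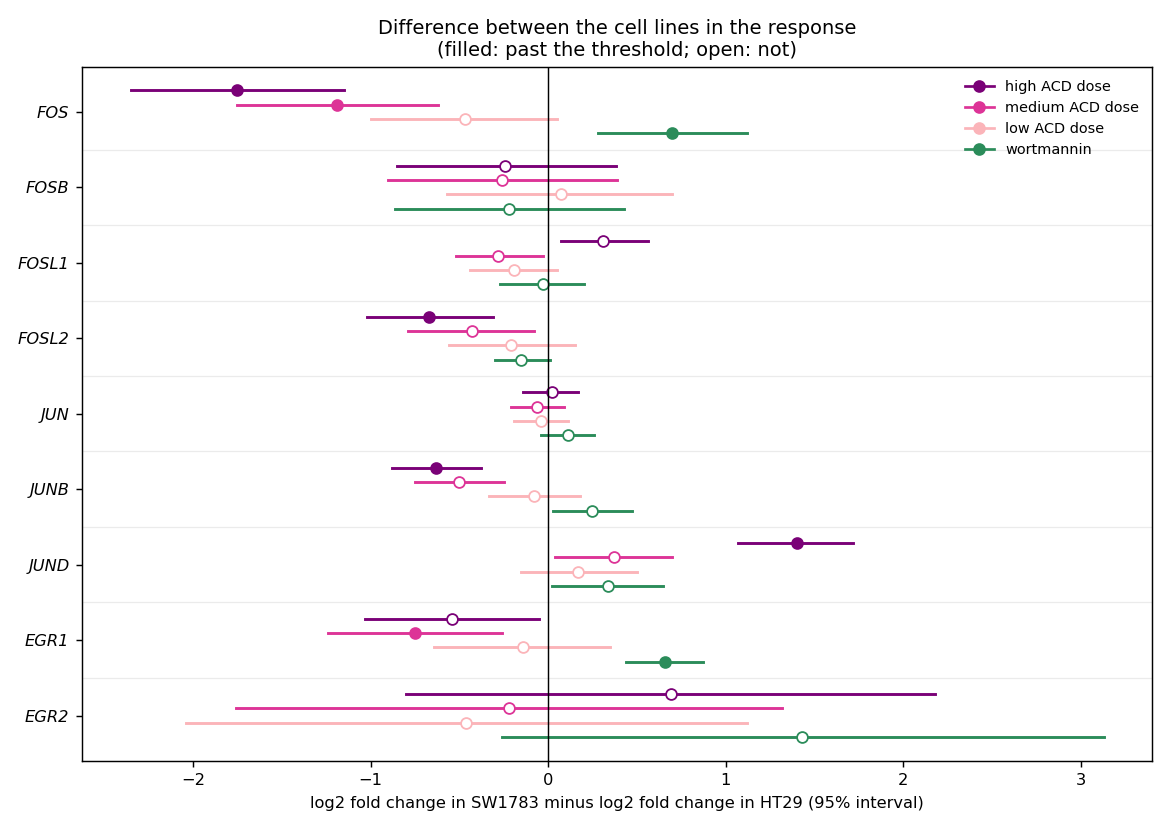
Points are the log2 fold change in SW1783 minus that in HT29 for 9 members with 95% intervals, for 3 ACD doses and wortmannin, and filled points passed both thresholds. FOS lies left of 0 at the high and medium ACD doses and right of 0 with wortmannin, JUND lies right of 0 at the high dose, and JUN stays near 0.

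Shares within a family do not depend on how libraries are scaled. All shares are percentages of the family's counts per kb of exon, as mean ± SD with n = 3, and were not tested. In the SW1783 vehicle of batch B, FOSL1 made up 68.73 ± 1.09% and FOSL2 30.61 ± 1.02% of Fos transcripts, and at the high dose 84.45 ± 0.69% and 15.2 ± 0.65%. FOS itself went from 0.46 ± 0.05% to 0.14 ± 0.02%. Of Jun transcripts, JUND went from 21.15 ± 0.29% to 38.66 ± 0.57% and JUNB from 35.55 ± 1.17% to 20.61 ± 0.7%, while JUN stood at 43.3 ± 1.34% and 40.73 ± 1.15%. The medium dose lay between, with JUND at 26.35 ± 2.03% and FOSL1 at 72.83 ± 1.77%. Of EGR transcripts, EGR3 went from 18.89 ± 0.82% to 8.38 ± 1.22% and EGR1 from 80.03 ± 0.37% to 89.44 ± 1.18%. For each of these members the 3 high-dose libraries lay outside the range of the vehicle libraries. Shares of a family are parts of one total, so these separations are not separate results. EGR1 gained share although its own log2 fold change was 0.10 (adjusted p = 0.522 by DESeq2), and JUN lost share although its own was 0.42.
In HT29 FOSL1 was at 45.81 ± 0.94% under vehicle and 49.28 ± 4.59% at the high dose, FOSL2 at 33.95 ± 2.62% and 28.43 ± 4.51%, FOS at 18.14 ± 1.43% and 19.58 ± 0.14%, FOSB at 2.1 ± 0.26% and 2.71 ± 0.19%, JUNB at 44.32 ± 2.44% and 47.71 ± 2.18%, and JUND at 33.52 ± 1.9% and 27.71 ± 2.6%. With wortmannin FOS went from 0.43 ± 0.09% to 0.86 ± 0.11% in SW1783 and FOSL1 from 68.28 ± 1.05% to 64.64 ± 1.62%.

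**Figure D4:**
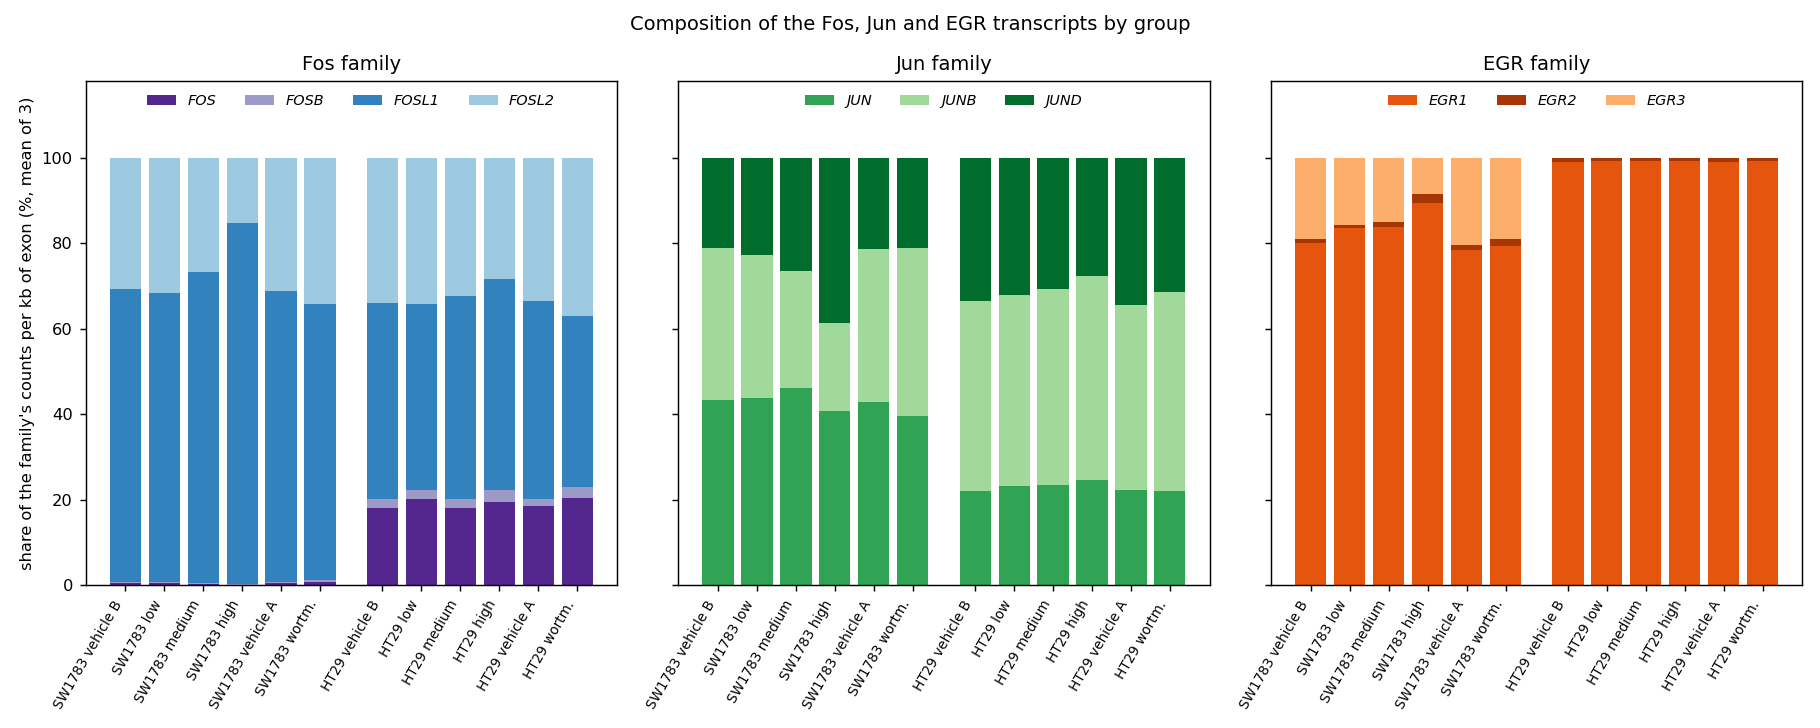
Stacked bars give the mean share (%) of each member in its family's counts per kb of exon for the 12 groups, with Fos, Jun and EGR families in separate panels. At the high ACD dose in SW1783 the FOSL1 and JUND segments are larger than under vehicle and the FOSL2, JUNB and EGR3 segments are smaller, and FOS takes 18.14% of the batch B vehicle bar in HT29 against 0.46% in SW1783.

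Over the 8 log2 fold changes (4 treatments in 2 lines, where the ACD doses of a line share a vehicle), the members are compared here as a description. A mean of at least 50 normalized counts was required in each of the 4 fits, which FOSL1, FOSL2, JUN, JUNB, JUND and EGR1 met. Among these 6, FOSL1 and JUN followed each other most closely (Pearson's r = 0.95, n = 8), then JUNB and EGR1 (r = 0.89), while FOSL2 and JUND ran opposite (r = -0.82). Among 10529 genes, those outside the members with the pattern most like FOSL1 were IPO7 (r = 0.982), PELO (0.979) and IMMT (0.97). For JUN they were CNBP (0.985), CHMP2B (0.983) and UBE2D3 (0.981), and for EGR1 RASA3 (0.948), TERF1 (0.942) and ARRB2 (0.937).

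Genes around AP-1 and EGR were described by lists, which were chosen with earlier results of these data known. Their counts and medians are therefore a description, and an excess over the share of all genes is not an independent result. Among 10 other basic leucine zipper partners of AP-1, 5 of the 9 with an adjusted p rose at the high dose in SW1783 and none fell, with a median log2 fold change of 0.87, against -0.012 over all genes tested. Of all genes tested there, 8.39% rose and 9.26% fell, which is the background for each list in SW1783 below. In HT29 1.38% of all genes tested rose and 1.78% fell. ATF3, a stress-induced partner of Jun proteins, rose most (4.73 ± 0.16, adjusted p = 8.92e-179), followed by the small Maf factors MAFF (2.05 ± 0.08, 2.69e-138) and MAFG (1.42 ± 0.05, 9.11e-197). In HT29 2 of 8 rose, ATF3 (1.45 ± 0.18, 6.82e-13) and JDP2 (1.10 ± 0.16, 1.77e-09), with a median of 0.05, against 0.014 over all genes tested.
Of 15 other immediate early genes, 8 of 14 rose in SW1783 at the high dose and none fell, with a median of 0.93. The largest changes were in IER3 (3.45 ± 0.22, 3.01e-55), KLF4 (2.76 ± 0.13, 1.61e-106) and KLF6 (1.70 ± 0.05, 9.59e-296). In HT29 IER3 rose (0.71 ± 0.11, 5.91e-09) and the antiproliferative gene BTG2 fell (-1.01 ± 0.09, 3.67e-26), out of 13, with a median of 0.12.
Regulators upstream came next. Of 6 SRF and ETS factors and their cofactors, the SRF coactivator MRTFA fell in SW1783 (-0.95 ± 0.05, 1.73e-66) and ELK4 rose (0.77 ± 0.05, 3.93e-61), with a median of 0.02, and none changed in HT29. Of 11 upstream kinases, 1 was called in SW1783, a share under the 17.6% of all genes. It was RPS6KA5, a kinase of histone H3 and CREB (1.08 ± 0.12, 1.21e-17), and the list had a median of 0.09. None was called in HT29. Neither of the corepressors NAB1 and NAB2 passed both thresholds in either line.
Of 18 genes known as AP-1 targets, 7 rose and 2 fell in SW1783 at the high dose, with a median of 0.44. CXCL8 (4.42 ± 0.11) and IL6 (3.48 ± 0.15, 8.08e-118) rose most and CCL2 fell (-1.21 ± 0.12, 3.21e-22). In HT29 3 of 10 rose and none fell, with a median of 0.42: CXCL8 (3.09 ± 0.26, 1.63e-29), VEGFA (0.82 ± 0.10, 5.56e-13) and PTGS2 (0.63 ± 0.11, 2.25e-07). Of 7 EGR targets, PDGFB, named here after its value was seen because its mean count was low, rose (1.04 ± 0.37, 0.012) and THBS1, a matrix glycoprotein, fell (-1.94 ± 0.04) in SW1783, while THBS1 rose in HT29 (0.67 ± 0.11, 3.77e-07). The difference between the lines in THBS1 was -2.66 ± 0.11 (adjusted p = 3.09e-125).

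**Figure D5:**
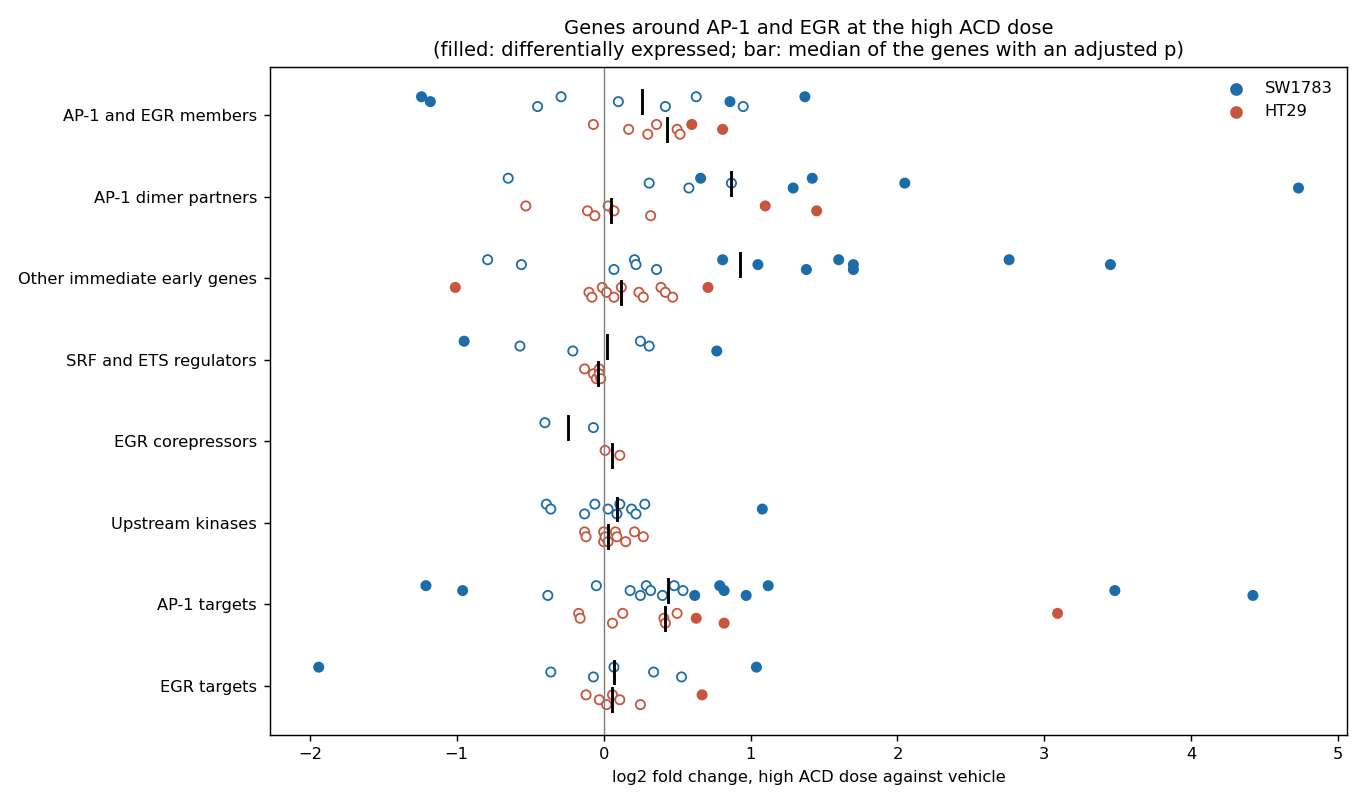
Points are log2 fold changes at the high ACD dose against vehicle for the members and 7 lists of related genes, in SW1783 and HT29, with filled points for genes that passed both thresholds and bars for list medians. The medians of AP-1 dimer partners and other immediate early genes lie at 0.87 and 0.93 in SW1783 and at 0.05 and 0.12 in HT29.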

How the data were processed

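RNA from 36 libraries was sequenced. Per the processing notes the authors used FastQC 0.11.9, Trim Galore 0.6.5, STAR 2.7.3a and RSEM 1.3.3. The deposited values were RSEM expected counts per gene, which were rounded to whole numbers (8.84% were not whole). Rows without a symbol held 0.142% of counts. Total counts ranged from 15941255 to 33866644, and intervals for a count of 0 cover counting error only. Groups were taken from the labels. DESeq2 1.42.0 (R 4.3.3) was fitted per line on the 12 libraries of batch B or the 6 of batch A, and with a line by treatment term on 24 or 12 libraries. Wald p-values were adjusted by the Benjamini-Hochberg method over all genes kept by independent filtering, and a gene was called at an adjusted p under 0.05 and a change over 1.5-fold. edgeR 4.0.16 (quasi-likelihood), other filters, a replicate block and left-out libraries were alternatives. All 10 members were described. Other genes were named when called and among the 3 largest changes of their list with a mean of at least 50 normalized counts. The members and lists were chosen with earlier results of these data known. A marker of the leukocyte list, and the summed level of that list, are not reported here.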

Additional observations from a re-analysis of the deposited data

Results flagged for a closer look

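In 8 cases the response of a member differed between SW1783 and HT29 by the interaction term of DESeq2, given as the log2 fold change in SW1783 minus that in HT29. At the high ACD dose these were FOS (-1.75), FOSL2 (-0.67), JUNB (-0.63) and JUND (1.40). At the medium dose they were FOS (-1.19) and EGR1 (-0.75). With wortmannin they were FOS (0.70) and EGR1 (0.66), both in the opposite direction to the medium dose. The FOS call with wortmannin and the EGR1 call at the medium dose were lost when some single libraries were left out. So were the FOSL2 and JUNB calls at the high dose, which then fell short of the fold threshold.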

How the results depend on the processing

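No log2 fold change of a called member changed sign under the alternatives run. Without the fold threshold the members called were 7 at the high dose, 5 at the medium dose and 6 with wortmannin in SW1783, 5 between its high and medium doses, and 6, 1 and 1 in HT29 for high, medium and wortmannin. With edgeR they were 1 at the medium dose in SW1783, 1 at the high dose in HT29 and 1 for the medium-dose interaction. With only the groups compared they were 1 at the high and 1 at the medium dose in HT29. With single libraries left out they ranged from 1 to 2 for wortmannin in SW1783, 1 to 3 and 0 to 1 at the high and medium doses in HT29, and 3 to 5, 1 to 2 and 1 to 2 for the high-dose, medium-dose and wortmannin interactions. In the high-dose interaction FOSL2 lost its call without HT29 high replicate 1 or 3 (-0.53 and -0.56) and JUNB without HT29 vehicle replicate 3, SW1783 high replicate 2 or SW1783 vehicle replicate 3 (-0.54, -0.57 and -0.55). Leaving the deviating HT29 library out of the other doses was chosen after seeing the data. The cause was not tested. EGR2 and, in HT29, EGR3 were too low for calls at this depth.

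Within a batch, replicate numbers showed no general pairing of treated with vehicle libraries, since 3 of 24 same-numbered pairs correlated above 0.1. This does not cover the vehicles of batches A and B, which were closest by number, as given above. With the replicate block 1 member was called for wortmannin in SW1783, 1 at the high dose in HT29 and 1 for the wortmannin interaction, with FOS (adjusted p = 0.117), EGR1 (0.0701) and FOS (0.214) lost, and it changed no other call of a member.

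Counts over all genes that moved by over 1.5 times were, with edgeR against DESeq2, 809 against 539 at the medium dose, 30 against 11 at the low dose and 689 against 394 with wortmannin in SW1783, 18 against 48 at the low dose in HT29 and 19 against 33 for the low-dose interaction. With only the groups compared the high dose in HT29 gave 304 against 466 and the low dose in SW1783 6 against 11, where removing mitochondrial genes gave 5. The replicate block gave 212 against 360 for wortmannin in HT29 and 271 against 445 for its interaction. With single libraries left out, the low dose in SW1783 gave 5, 6 and 7 without low replicate 1, 2 and 3, the medium dose in HT29 gave 88 against 135 without medium replicate 3, and the low dose in HT29 gave 31 without low replicate 3 and 25 without vehicle replicate 2. Between the vehicle groups of the batches the count stayed from 0 to 3.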

Other observations

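Among the targets, 2 genes of inflammation followed the doses differently in the lines. PTGS2, which makes prostaglandins, fell at the low dose in SW1783 (log2 fold change -0.65 ± 0.06, adjusted p = 2e-26 by DESeq2) and rose at the medium dose in HT29 (0.85). The difference between the lines was -1.18 ± 0.11 (adjusted p = 5.76e-23) at the low dose and -1.29 ± 0.11 (6.69e-29) at the medium dose. At the high dose it was -0.36 ± 0.11 (0.0063), short of the fold threshold. CXCL8, a neutrophil chemokine, rose at the low dose in HT29 (1.35 ± 0.26, adjusted p = 0.000237), and the difference between the lines was -1.62 ± 0.33 (0.000449) at the low dose, -1.18 ± 0.32 (0.00393) at the medium dose and 1.3 ± 0.31 (0.000267) at the high dose. With wortmannin TIMP1, an inhibitor of matrix metalloproteinases, rose in SW1783 (0.66 ± 0.02, adjusted p = 3.46e-265) and CXCL8 fell (-0.61 ± 0.19, 0.00707), and TIMP1 differed between the lines by 0.76 ± 0.10 (3.42e-13).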
